A study of Mus musculus with 4 samples.

Results

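The proteasome genes of the tibialis anterior (TA), a shin muscle with mainly fast fibres, and of the heart were compared between mice lacking MG56 (gene symbol Hhatl) and wild-type mice. A gene was taken as a member if its symbol on the array began with Psma, Psmb, Psmc, Psmd or Psme followed by a digit. This rule found 44 genes, read by 91 probe sets, of 18193 genes with a probe set of their own. By subunit roles known as background, 42 of the 44 belong to the proteasome or assist its assembly. The other members, Psmc3ip, a meiotic recombination factor, and Psme3ip1, a partner of an activator, share only the start of the name. Psme2, the partner of Psme1 in the PA28 activator, was read by 1 probe set that also carries the symbol Psme2b and was therefore no member.

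All mice were of the C57BL/6J background and at postnatal day 9. There were 4 groups, MG56-knockout TA, wild-type TA, MG56-knockout heart and wild-type heart, with 1 Affymetrix array each. Per the series' design text, each knockout array read a pool of RNA from 3 mice. Wild-type RNA was pooled too, from a number of mice not given in the sources used here, which do not say how the allele was made. Each ratio below therefore sets 1 pool of RNA against another, without a replicate error or a p-value.

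The 26S proteasome degrades proteins that carry ubiquitin chains. Its 20S core is a barrel of alpha rings, which gate the entrance, and beta rings, of which the subunits Psmb5, Psmb6 and Psmb7 hold the active sites. The 19S cap has a base of ATPases that unfold the substrate and a lid that removes ubiquitin. Under interferon, Psmb8, Psmb9 and Psmb10 replace these active-site subunits to form the immunoproteasome, and the PA28 and PA200 activators can take the place of the cap. In striated muscle the proteasome carries much of the turnover of contractile proteins.

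The deposited values are signal intensities on a linear scale. The floor was the median of all signals, 101.3. Signals under it were raised to it, and a gene was measured in a comparison where 1 of its arrays or both reached it. The probe set with the highest mean signal stood for the gene. Of the 44 members 42 were measured in every comparison, and 39 had a mean signal of at least 4 times the floor. Psma8, a core subunit of the testis, and Psmb11, a core subunit of the thymus, lay under the floor on every array, at 12.5 to 66.3 and 3.6 to 35.4. The 31 members of the constitutive core, base and lid had mean signals from 817 to 13980.

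Hhatl itself had 1078 in knockout and 5491 in wild-type TA and 880 and 2110 in heart, 5.09-fold and 2.40-fold lower. Both knockout signals were well above the floor; the labels do not say which part was deleted. The tissue labels were checked against markers. All 8 skeletal muscle markers were above the floor in both TA pools and 2 of 8 in the heart pools, and all 8 heart markers were above it in both heart pools and 3 of 8 in TA. Between genotypes, all 7 measured proliferation markers were lower by 1.5-fold or more in each knockout, with median log2 ratios of -1.31 in TA and -1.52 in heart, and summed signals of 3228 against 7599 in TA and 3850 against 10218 in heart. The part of that shift in the results below was not tested, and in such bulk RNA fewer cells of a type and less RNA per cell cannot be told apart.

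The promoters of the members whose levels set them apart are shown here, 250 bases before to 50 bases after the annotated start, 5′ to 3′, from RefSeq (GRCm38.p6). The immunoproteasome genes and Psme1 were the members at least 1.2-fold lower in wild-type TA than in heart. Psmb5 and Psmb6 are constitutive counterparts, and Psmd13 had the largest deficit of the proteasome's own genes in both knockout pools. Capitals mark matches, on either strand, to the antioxidant response element core (TGANNNNGC), the interferon-stimulated response element (GAAANNGAAA), the gamma-activated site (TTCNNNGAA) and the CCAAT box (CCAAT).
Psmb8 (chr17:34197945-34198244, plus strand): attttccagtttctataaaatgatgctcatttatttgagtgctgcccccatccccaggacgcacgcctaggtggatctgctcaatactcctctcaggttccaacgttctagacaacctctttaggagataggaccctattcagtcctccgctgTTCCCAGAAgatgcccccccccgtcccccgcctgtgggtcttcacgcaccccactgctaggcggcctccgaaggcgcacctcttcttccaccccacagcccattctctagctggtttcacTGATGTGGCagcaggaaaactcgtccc
Psmb9 (chr17:34187281-34187580, minus strand): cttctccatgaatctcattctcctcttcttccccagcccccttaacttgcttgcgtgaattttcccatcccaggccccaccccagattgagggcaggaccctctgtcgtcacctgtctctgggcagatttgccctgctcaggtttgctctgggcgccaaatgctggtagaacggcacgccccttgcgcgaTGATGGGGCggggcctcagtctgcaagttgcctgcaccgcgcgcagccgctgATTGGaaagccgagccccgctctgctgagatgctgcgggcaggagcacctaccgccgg
Psmb10 (chr8:105938343-105938642, minus strand): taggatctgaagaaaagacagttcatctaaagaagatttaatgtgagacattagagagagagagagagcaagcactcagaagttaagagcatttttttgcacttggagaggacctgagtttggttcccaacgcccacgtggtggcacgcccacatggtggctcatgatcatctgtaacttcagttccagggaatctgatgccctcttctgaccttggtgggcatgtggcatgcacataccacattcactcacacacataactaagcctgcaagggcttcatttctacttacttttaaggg
Psme1 (chr14:55578244-55578543, plus strand): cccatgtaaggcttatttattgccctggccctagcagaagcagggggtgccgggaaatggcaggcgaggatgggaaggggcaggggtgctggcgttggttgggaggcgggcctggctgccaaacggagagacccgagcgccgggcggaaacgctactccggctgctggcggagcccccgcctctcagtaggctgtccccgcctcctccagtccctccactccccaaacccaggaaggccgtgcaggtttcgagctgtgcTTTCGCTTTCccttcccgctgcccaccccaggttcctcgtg
Psmb5 (chr14:54617946-54618245, minus strand): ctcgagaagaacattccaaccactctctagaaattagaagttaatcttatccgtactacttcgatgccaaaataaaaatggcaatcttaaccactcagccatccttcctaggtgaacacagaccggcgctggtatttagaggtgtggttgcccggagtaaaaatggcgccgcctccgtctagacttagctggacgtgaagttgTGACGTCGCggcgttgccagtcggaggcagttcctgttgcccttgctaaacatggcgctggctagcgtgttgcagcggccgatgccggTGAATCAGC
Psmb6 (chr11:70525107-70525406, plus strand): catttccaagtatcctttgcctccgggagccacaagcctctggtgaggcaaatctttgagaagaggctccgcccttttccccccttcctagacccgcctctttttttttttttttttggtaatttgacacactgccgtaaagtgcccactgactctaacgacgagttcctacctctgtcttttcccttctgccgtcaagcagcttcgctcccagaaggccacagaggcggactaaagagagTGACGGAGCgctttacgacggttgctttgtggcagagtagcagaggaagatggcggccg
Psmd13 (chr7:140882144-140882443, plus strand): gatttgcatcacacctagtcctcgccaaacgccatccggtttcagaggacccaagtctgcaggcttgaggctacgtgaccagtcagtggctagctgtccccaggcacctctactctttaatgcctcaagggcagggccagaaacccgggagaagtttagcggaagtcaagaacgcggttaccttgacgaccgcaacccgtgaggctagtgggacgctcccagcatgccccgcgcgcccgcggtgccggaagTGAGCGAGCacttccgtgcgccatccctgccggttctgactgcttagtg

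In these windows Psme1 held the interferon-stimulated letters, and Psmb8 held those of the gamma-activated site and an antioxidant core. Psmb9 also held the antioxidant core and an inverted CCAAT box, and Psmb10 held none of the motifs. Psmb5 held 2 antioxidant cores, while Psmb6 and Psmd13 held 1 each. Of the 44 members 37 had a promoter in the RefSeq table, in 40 windows. The antioxidant core was found in 57.5% of these windows against 41.3% of all 32851 promoters of the same length. The interferon-stimulated letters were found in 10% against 3.44%. That 10% was 4 windows, of Psmb3, Psmd4, Psmd9 and Psme1, and none of Psmb8, Psmb9 or Psmb10. For the gamma-activated site the shares were 5.0% and 8.3%, and for the CCAAT box 40.0% and 37.4%. No matches of different motifs overlapped in a member's window. A match describes these letters only.

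In the hearts of the knockout pool, the constitutive proteasome genes were nearly all slightly lower than in the wild type. Of 31 genes of the core, base and lid, 28 (90.3%) had a log2 ratio of knockout over wild type below 0, against 50.3% of all measured genes and 49.9% of those with a signal of at least 4 times the floor. Their median log2 ratio was -0.18, a 1.13-fold deficit, where the median of all genes was -0.002. Only Psmd13 was at least 1.5-fold lower and none was higher, so that 1 of the 42 measured members passed this fold downwards against 4.19% of all genes, and 0 upwards against 2.67%. At 1.2-fold, 5 members were lower against 16.7% of genes, and 0 were higher against 15.6%. The members thus passed these folds no more often than other genes did, and their differences were small and mostly of 1 direction.

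In TA the same direction prevailed with more exceptions. Of the 31 constitutive genes 24 (77.4%) lay below 0, against 51.2% of all measured genes and 51.3% of those of at least 4 times the floor, with a median log2 ratio of -0.15, a 1.11-fold deficit. Over all 42 measured members 30 lay below 0. At least 1.5-fold lower were 2 members, Psmd13 and Psmc3ip, against 4.44% of all genes, and 0 were higher against 4.2%. At 1.2-fold, 9 members were lower against 18.4% and 2 were higher, Psme4 and Psmd5, against 17.8%.

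The knockout comparisons of TA and heart share no array. The labels do not say whether the TA and heart pools came from the same mice. In both, 23 of the 31 constitutive genes lay below 0 and 2 above, while 30.5% of all genes measured in both tissues lay below 0 in both and 29.3% above. The 2 above were Psmd4 and Psmd11, each on its brightest probe set. A second bright probe set of Psmd4 had a log2 ratio of -0.02 in TA. Psmd11 lay below 0 in heart without the _x and _s probe sets, at -0.02. Across the 31 genes the log2 ratios of TA and heart had a Pearson correlation of 0.64, and across all 42 measured members 0.40. The 31 include Psmd13, the lowest of them in both tissues at -0.66 and -0.71, and the correlation without it was not computed. These values describe genes that were measured on the same 4 arrays and are not independent. The median difference between the tissues' log2 ratios over all members, TA minus heart, was 0.04, where the median of all genes was 0.0002.

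**Figure D1:**
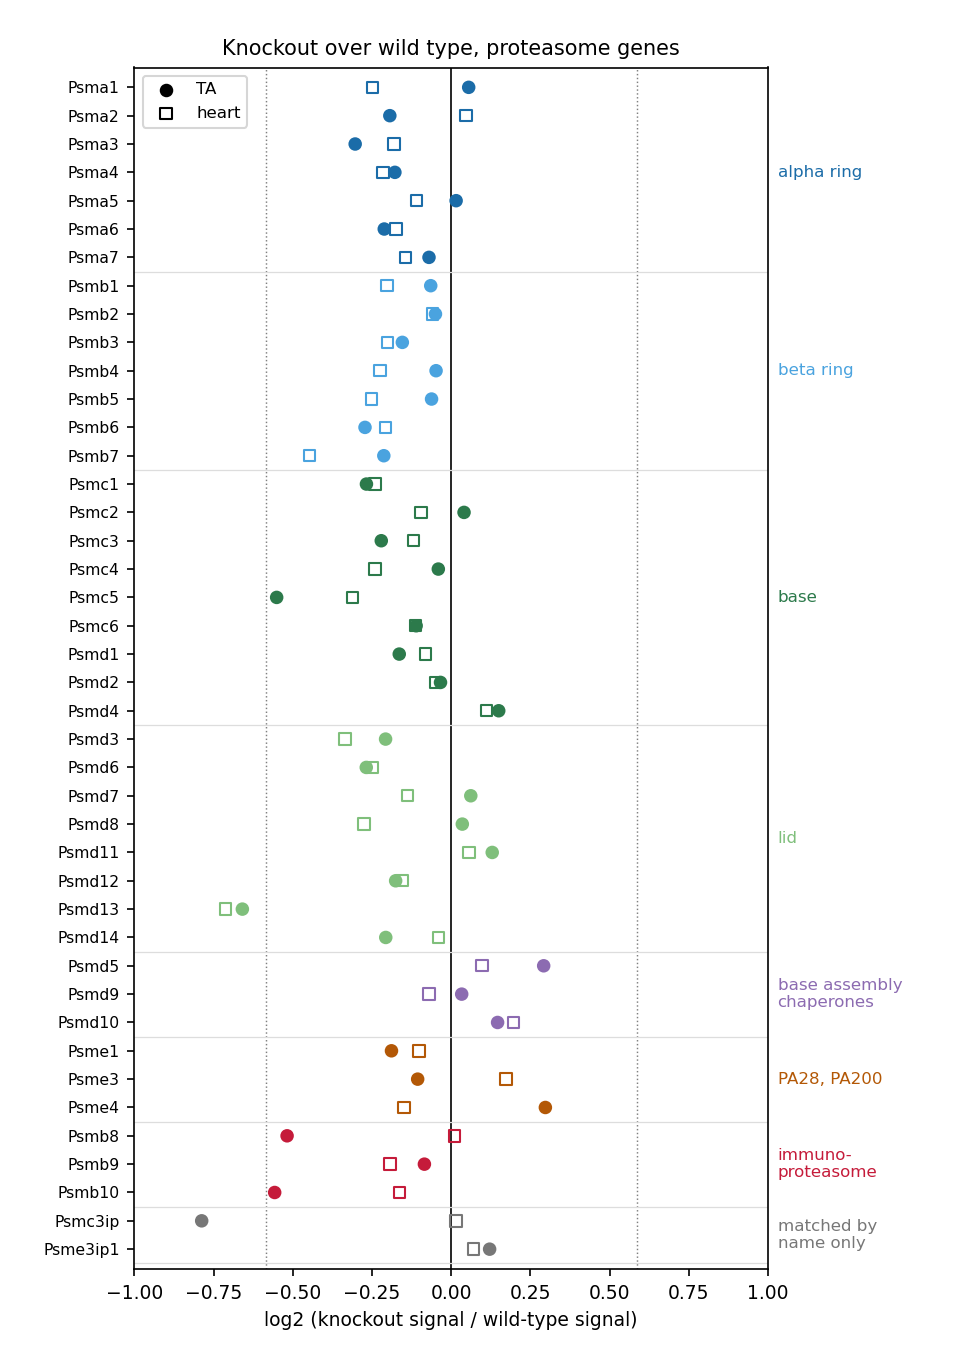
Log2 ratio of knockout over wild-type signal (x axis) for the 42 measured members (y axis), grouped by class, with filled circles for TA and open squares for heart, each from 1 array per genotype. Dotted lines mark 1.5-fold. Most points of the alpha ring, beta ring, base and lid lie a little left of 0 in both tissues, and Psmd13 lies beyond the left dotted line in both.

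Genes read by several probe sets give a guide to part of the error of such small ratios. Probe sets of a gene share the pools and arrays, so their spread leaves out differences between pools and arrays. Over 2582 genes with at least 2 probe sets of at least 4 times the floor, the log2 ratios of the brightest pair differed by a median of 0.14 in TA and 0.14 in heart. For the 13 members among them the medians were 0.11 and 0.08. Most ratios of single constitutive genes were of the size of this difference. Taken one by one, 41 of 47 bright probe sets of the constitutive genes lay below 0 in heart, against 49.5% of all bright ones. In TA 34 of 47 did, against 51.5%. These probe sets share genes and arrays and are not independent.

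The alpha ring, which forms the outer gates of the core, had median log2 ratios of -0.18 in TA and -0.17 in heart over 7 genes. The signal of Psma3 was 15050 in knockout and 18568 in wild-type TA and 8692 and 9852 in heart. This was the lowest TA ratio of the ring, a log2 ratio of -0.30. Psma1 had 5996 and 5771 in TA and 4897 and 5820 in heart, the highest ratio of the ring in TA (0.06) and the lowest in heart (-0.25). Psma2 had 5867 and 6711 in TA and 5324 and 5156 in heart, where it was the only gene of the ring above 0, at 0.05. Psma6 had 15499 and 17944 in TA and 10561 and 11915 in heart. Psma4, Psma5 and Psma7 had log2 ratios between -0.18 and 0.02 in TA and between -0.22 and -0.11 in heart.

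In the beta ring all 7 genes were below 0 in both tissues on the deposited scale, with medians of -0.06 in TA and -0.21 in heart. Psmb7, the trypsin-like active-site subunit, had 1503 in knockout and 1741 in wild-type TA and 1023 and 1395 in heart. In heart it was 1.36-fold lower, the largest deficit of the core. Psmb5, the chymotrypsin-like subunit, had 7777 and 8118 in TA and 4496 and 5350 in heart, log2 ratios of -0.06 and -0.25. Psmb6, the caspase-like subunit, had 7113 and 8589 in TA and 5383 and 6216 in heart, log2 ratios of -0.27 and -0.21. All the constitutive active-site genes were thus lower in the knockout pool of each tissue, none by 1.5-fold. Psmb4, a structural subunit, had 12473 and 12892 in TA and 9862 and 11521 in heart. On its brightest probe set it was the gene of the ring closest to 0 in TA, at -0.05. It lay above 0 there under quantile normalization over the 4 arrays, at 0.04. A second bright probe set of Psmb4 had 7838 in knockout and 9566 in wild-type TA, a log2 ratio of -0.29. In heart that probe set had -0.31. Psmb2 had 4216 and 4364 in TA and 4260 and 4440 in heart, where it was the gene closest to 0, at -0.06. Psmb1 had 6450 and 6746 in TA and 4657 and 5359 in heart. Its log2 ratios were -0.06 and -0.20, and those of Psmb3 were -0.15 and -0.20.

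The base of the cap, with its 6 ATPases Psmc1 to Psmc6 and the scaffold and ubiquitin-binding subunits Psmd1, Psmd2 and Psmd4, had medians of -0.11 in both tissues. Psmc5 had 3156 in knockout and 4624 in wild-type TA and 2367 and 2940 in heart. It was 1.47-fold lower in TA and 1.24-fold lower in heart, the largest deficit of the base in each. Psmd4, a ubiquitin receptor, had 4864 and 4384 in TA and 3530 and 3268 in heart. On the brightest probe sets it was the only gene of the base above 0 in heart. Psmc1 had 4001 and 4817 in TA and 2557 and 3022 in heart, and Psmc3 had 7731 and 9009 in TA and 5451 and 5922 in heart. Both ATPase genes were lower in each knockout pool, with log2 ratios between -0.27 and -0.12. Psmc2, Psmc4, Psmd1 and Psmd2 had log2 ratios between -0.16 and 0.04 in TA and between -0.24 and -0.05 in heart. A second bright probe set of Psmc2 had a log2 ratio of 0.07 in heart, against -0.10 on the brightest. Psmc6 was read by 3 measured probe sets that pointed the same way with different sizes, from -0.44 to -0.11 in TA and from -0.59 to -0.11 in heart.

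In the lid, Psmd13 stood apart. Its signal was 644 in knockout and 1017 in wild-type TA, and 610 and 998 in heart, so that it was 1.58-fold and 1.64-fold lower. The wild-type pools of both tissues were close to each other and both knockout pools lay below them. A second probe set also lay lower in each knockout, with log2 ratios of -0.53 in TA and -0.37 in heart. Another, dim probe set pointed the opposite way, with 155 in knockout and 107 in wild-type TA and 350 and 216 in heart, log2 ratios of 0.53 and 0.69. Taking the median over these probe sets, as an alternative, left Psmd13 under 1.5-fold in both tissues. Sirt3, a mitochondrial deacetylase gene and the neighbour of Psmd13 on chromosome 7 in RefSeq's order, had 490 and 701 in TA and 896 and 1157 in heart, log2 ratios of -0.52 and -0.37. The neighbour on the other side, Cox8b, had log2 ratios of 0.09 and -0.03.

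The other lid genes differed less. Psmd14, the deubiquitinase of the lid, had log2 ratios of -0.21 in TA and -0.04 in heart. Psmd6 had 13093 in knockout and 15767 in wild-type TA and 5821 and 6914 in heart, and Psmd12 had 6471 and 7308 in TA and 3967 and 4416 in heart. Each was lower in both knockout pools, with log2 ratios between -0.27 and -0.15. Psmd11, a scaffold of the lid, had 8190 and 7487 in TA and 6156 and 5919 in heart, the highest ratios of the lid in each tissue, at 0.13 and 0.06. Psmd7, the partner of the deubiquitinase, had 3414 and 3271 in TA and 1696 and 1867 in heart. Psmd3 and Psmd8 had log2 ratios of -0.21 and 0.04 in TA and of -0.34 and -0.27 in heart.

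The genes of base assembly chaperones did not share the direction of the subunits. Psmd5, Psmd9 and Psmd10, which help to build the ATPase ring and leave the finished particle, had medians of 0.15 in TA and 0.10 in heart. Psmd5 had 1134 in knockout and 927 in wild-type TA, 1.22-fold higher, and 861 and 805 in heart. Psmd10 had 919 and 830 in TA and 782 and 682 in heart, higher in each knockout pool. Psmd9 had 766 and 749 in TA and 654 and 686 in heart, so that its directions differed. With 3 genes and no replicates, whether the class differs from the subunits was not tested.

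Psme4, the PA200 activator gene, had 10233 in knockout and 8328 in wild-type TA, a 1.23-fold excess that was the largest among the members there. All 5 of its measured probe sets lay above 0 in TA. In heart the brightest probe set had 5739 and 6364, a log2 ratio of -0.15, while the other 4 lay above 0, from 0.15 to 0.77. Its direction in heart therefore depends on the probe set. Psme1, a PA28 subunit gene, had 1872 and 2133 in TA and 5853 and 6278 in heart, log2 ratios of -0.19 and -0.10. Psme3, the gene of the nuclear PA28 form, had 653 and 703 in TA and 554 and 491 in heart. The shared probe set of Psme2 and Psme2b had log2 ratios of -0.33 in TA and -0.13 in heart.

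Among the immunoproteasome genes, Psmb8 and Psmb10 differed more between knockout and wild type in TA than in heart, and Psmb9 slightly more in heart. Psmb10 had 518 in knockout and 762 in wild-type TA, 1.47-fold lower, and 1613 and 1806 in heart, 1.12-fold lower. Psmb8 had 158 and 226 in TA, 1.43-fold lower, and 350 and 347 in heart. Psmb9 was close to the floor, with 134 and 142 in TA and 167 and 190 in heart, 1.06-fold and 1.14-fold lower. None reached 1.5-fold, and the difference between tissues was not tested. The median log2 ratio of these genes minus that of Psmb5, Psmb6 and Psmb7 was -0.31 in TA and 0.09 in heart.

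Markers of leukocytes, which express the immunoproteasome strongly, were read beside these genes. Of 13 leukocyte markers 10 were measured in each tissue, with median log2 ratios of 0.06 in TA and 0.07 in heart. In TA 7 of the 10 lay above 0, against 48.7% of all genes, over a range from -0.48 to 2.40. There S100a8 and S100a9, neutrophil granule genes, were at least 1.5-fold higher and 0 markers lower, against 4.2% and 4.44% of all genes. In heart 8 of 10 lay above 0, against 49.7% of all genes, over a range from -1.09 to 0.69. Past 1.5-fold there, S100a9 was 1.61-fold higher and Laptm5, a lysosomal membrane gene of leukocytes, 2.13-fold lower, against 2.67% and 4.19% of all genes. The summed signal of all 13 markers was 10468 in knockout and 9496 in wild-type TA, and 7352 and 7098 in heart, and Cd3e, Cd79a and Itgam lay under the floor on every array. Of the list of antigen processing and interferon genes 13 were measured in TA and 14 in heart, and 0 reached 1.5-fold in either. Of all genes, 4.2% were 1.5-fold higher and 4.44% lower in TA, and 2.67% and 4.19% in heart. With so few listed genes, a count of 0 is near these shares. The list's medians were -0.05 and 0.01. Tap1, a peptide transporter gene that lies between Psmb9 and Psmb8 on chromosome 17, had log2 ratios of 0.47 in TA and -0.14 in heart, at signals of 116 to 192.

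**Figure D2:**
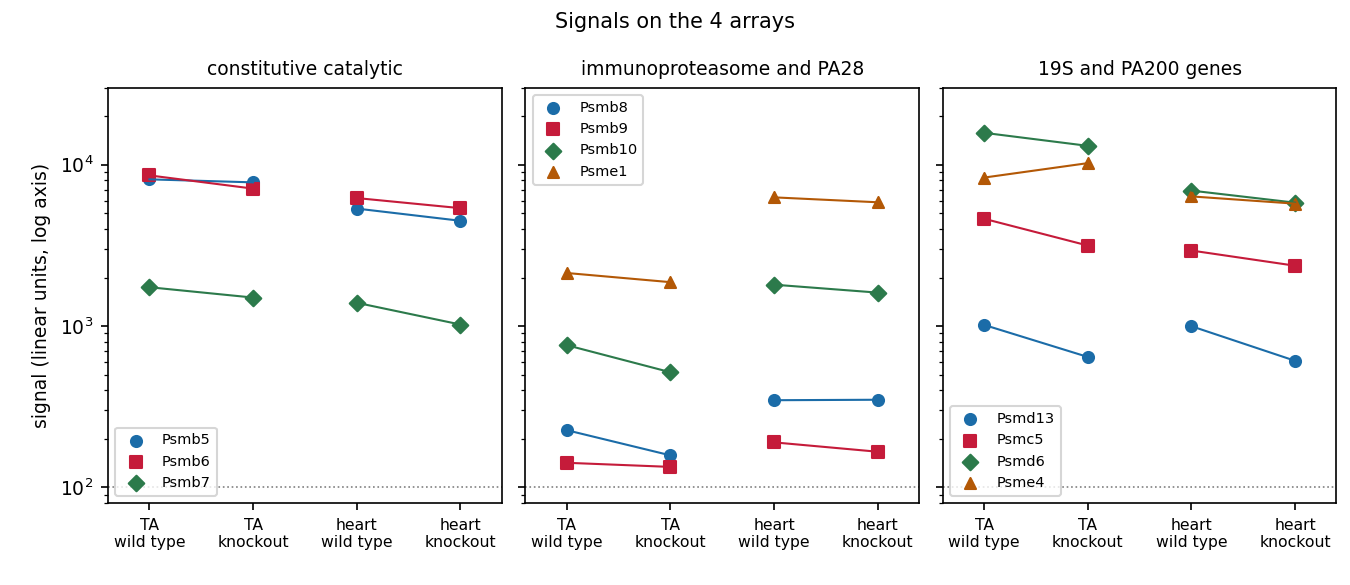
Signal on the 4 arrays (y axis, log scale) by group (x axis) for the constitutive active-site genes, the immunoproteasome genes with Psme1, and chosen genes of the cap and PA200, with a line joining the pools of a tissue and a dotted line at the floor. Psmb10 and Psme1 sit higher in heart than in TA while Psmb5, Psmb6 and Psmd6 sit higher in TA, and Psmd13 is at about the same level in both wild types and lower in both knockouts.

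Listed genes that act with the proteasome and were not matched by the name rule lay on both sides of 0. They include Sem1, a lid subunit by its known role, with log2 ratios of -0.06 in TA and 0.02 in heart. Of the list of assembly factors, receptors and associated enzymes 19 were measured, of which 8 lay below 0 in TA and 10 in heart, with medians of 0.03 in TA and -0.02 in heart. Pomp, the core assembly factor, had log2 ratios of -0.03 and -0.07. Psmf1, a proteasome inhibitor gene, was 1.70-fold higher in knockout TA with 722 against 424, but its other measured probe sets had log2 ratios of -0.13 and -0.15. Psmg3, a core assembly chaperone gene, was 1.64-fold lower in knockout heart with 474 against 775. Only Uba6 and Ubxn1 of the list of ubiquitin genes were measured, with log2 ratios between -0.12 and 0.12 in both tissues on their brightest probe sets. A dim probe set of Uba6, at 113 to 199, had 0.82 in TA and -0.48 in heart.

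Most of the listed transcriptional regulators of proteasome genes were higher in knockout TA. Of its 10 genes 8 were measured, with a median of 0.46 on the log2 scale in TA and 0.24 in heart. In TA 7 of the 8 lay above 0, against 48.7% of all genes, and in heart 6, against 49.7%. Among the 7, Maff was under the floor in wild-type TA, with 65.7 against 134 in knockout. In TA 2 genes and in heart 0 were at least 1.5-fold higher, against 4.2% and 2.67% of all genes. Nfe2l2, the antioxidant response factor, had 2518 in knockout and 1573 in wild-type TA, 1.60-fold higher, and 3087 and 2519 in heart. Its small Maf partner Mafk had 886 and 415 in TA, 2.13-fold higher, and 646 and 473 in heart. Nfe2l1, the factor that restores proteasome genes when the proteasome is inhibited, had 3833 and 2683 in TA and 3416 and 2940 in heart, 1.43-fold and 1.16-fold higher. Ngly1, the deglycosylase that processes Nfe2l1, lay below 0 in TA, at -0.19. In heart Keap1, the inhibitor of Nfe2l2, was 1.41-fold lower and Foxo3 1.21-fold lower, each on its brightest probe set. A dimmer Keap1 probe set had 172.5 in knockout and 153.2 in wild-type heart, a log2 ratio of 0.17. In TA it had -0.21, against 0.07 on the brightest. The direction of Keap1 in each tissue thus depends on the probe set. These are transcript levels, and the activity of the factors was not measured.

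Between the wild-type tissues, the constitutive proteasome genes were higher in TA than in heart, and the immunoproteasome genes were lower. Of the 31 genes of the core, base and lid 29 (93.5%) lay above 0, against 44.8% of all measured genes, with a median log2 ratio of 0.42, or 1.34-fold, where the median of all genes was -0.07. At least 1.5-fold higher in TA were 9 of the 42 measured members against 14.5% of all genes, all of them constitutive, and 3 were 1.5-fold lower against 18%, namely Psme1, Psmb10 and Psmb8. Psmb8 did not reach 1.5-fold when the ratios were centred on all genes (log2 ratio -0.55) or the arrays were quantile normalized (-0.53), and the 9 higher became 13 when centred and 6 or 7 under quantile normalization. At 1.2-fold, 26 members were higher against 27.8% and 4 lower against 35.3%. The wild-type arrays of this comparison also serve in the knockout comparisons.

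The tissue comparison in the knockout pools uses the other pair of arrays. There 30 of the 31 constitutive genes lay above 0, against 46.3% of all genes, with a median of 0.46. At least 1.2-fold higher in TA in both genotypes were 22 members, against 21.7% of the genes measured in both, and 4 were lower in both, against 27.1%. Taken without sign, the largest difference between the genotypes' log2 ratios was 0.80, for Psmc3ip, and the median over the 42 members was 0.12. Apart from sign, these are the same differences as those between the knockout ratios of TA and heart, whose signed median was 0.04. A second, dim probe set of Psmc3ip had closer ratios, -0.70 in wild type and -0.92 in knockout. Across the members the ratios of both genotypes had a Pearson correlation of 0.93, and across the 31 constitutive genes 0.86, a description over genes read on shared arrays.

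**Figure D3:**
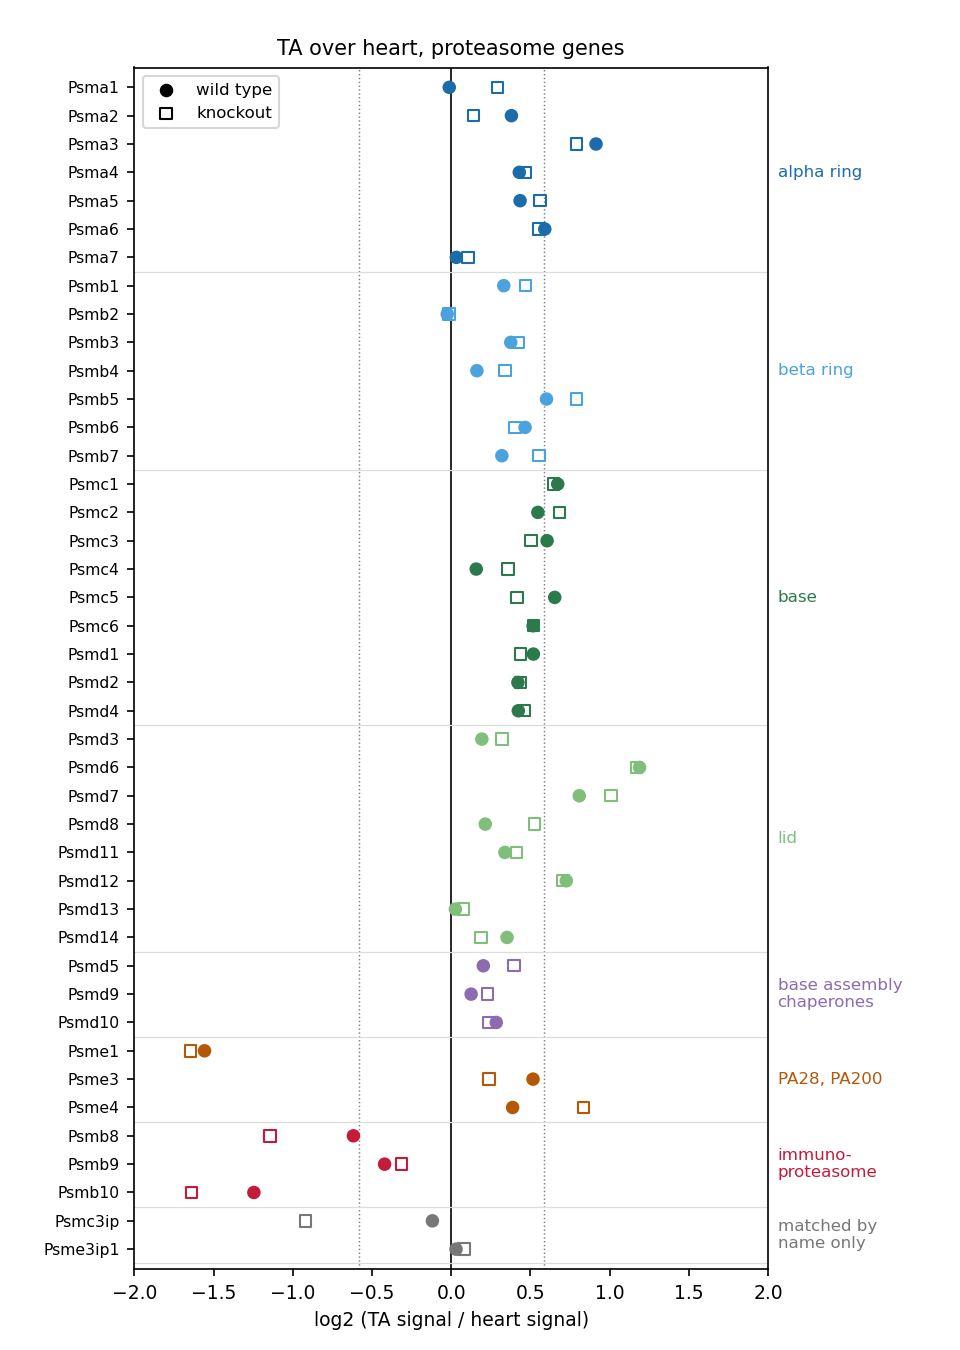
Log2 ratio of TA over heart signal (x axis) for the 42 measured members (y axis), grouped by class, with filled circles for the wild-type arrays and open squares for the knockout arrays. Dotted lines mark 1.5-fold. Nearly all constitutive genes lie right of 0 in both genotypes, and Psme1, Psmb8, Psmb9 and Psmb10 lie left of it.

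The lid gene Psmd6 had the largest excess in TA, with a wild-type signal of 15767 against 6914 in heart, 2.28-fold, and 13093 against 5821 in the knockouts. Psma3 followed with 18568 against 9852, 1.88-fold. Psmd7 was 1.75-fold higher, Psmd12 1.65-fold, Psmc1 1.59-fold and Psmc5 1.57-fold. These members come from the core, the base and the lid. With the median over its probe sets Psmd7 had a log2 ratio of only 0.28. Psmc3, Psmb5 and Psma6 were 1.51-fold to 1.52-fold higher and fell short of 1.5-fold under quantile normalization. By class, the median was 0.43 in the alpha ring, 0.33 in the beta ring, 0.52 in the base, 0.35 in the lid and 0.20 in the assembly chaperones. Psma1 and Psmb2 were closest to equal, with log2 ratios of -0.01 and -0.03 that turned to 0.06 and 0.04 when centred on all genes.

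Psme1 was the member with the largest difference the other way, 2133 in wild-type TA against 6278 in heart, 2.94-fold lower, and 3.13-fold lower in the knockouts. Psmb10 was 2.37-fold lower in wild-type and 3.12-fold lower in knockout TA, and Psmb8 1.53-fold and 2.21-fold. Psmb9, near the floor, was 1.34-fold and 1.24-fold lower. All 4 were thus lower in TA in both genotypes, although the sizes differed between them. The median log2 ratio of Psmb8, Psmb9 and Psmb10 minus that of Psmb5, Psmb6 and Psmb7 was -1.08 in wild type and -1.70 in knockout. The other activators went with the constitutive genes, Psme3 at 1.43-fold and Psme4 at 1.31-fold higher in wild-type TA. The shared probe set of Psme2 and Psme2b had 2302 in wild-type TA and 2493 in heart, a log2 ratio of -0.11.

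Other cells of the tissues also differed. Of 6 endothelial markers 4 (Kdr, Tek, Emcn and Tie1) were at least 1.5-fold lower in wild-type TA, against 18% of all genes, with a median log2 ratio of -0.97 and summed signals of 8280 in TA and 13514 in heart. The leukocyte markers went both ways, from -1.27 to 0.82 with a median of 0.09. S100a8 and S100a9 were 2.40-fold and 1.61-fold lower in TA and Csf1r, a macrophage receptor gene, was 1.76-fold higher. The summed signals were 9496 in TA and 7098 in heart, of which Csf1r gave 5044 and 2865. Of the antigen processing and interferon list 4 of 14 genes were at least 1.5-fold lower in TA and 0 higher, against 18% and 14.5% of all genes, with a median of -0.18. These 4 were Irf8 at 1.98-fold, Tap2 at 1.69-fold, Tap1 at 1.65-fold and Gbp2 at 1.59-fold lower. The part of endothelial cells in the tissue difference of Psmb8, Psmb10 and Psme1 was not tested. Among the associated proteins, 3 of 19 were at least 1.5-fold higher in TA and 0 lower, against 14.5% and 18% of all genes. The share higher was near that of all genes. These 3 were Zfand5 at 2.06-fold, Ecpas at 2.04-fold and Rad23b at 1.72-fold. Sem1, the lid subunit in this list, had a log2 ratio of -0.37 on its brightest probe set and 0.17 on the other. Of the regulators, Keap1 and Ngly1 were 1.88-fold and 1.51-fold higher in TA, and Foxo3 and Nfe2l2 were 1.80-fold and 1.60-fold lower. Ubxn1 of the ubiquitin list was 1.97-fold higher.

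Of the 44 members 23 had several probe sets. Probe sets of a gene were taken to disagree where their log2 ratios had opposite signs and lay at least 1.5-fold apart. For knockout over wild type in TA this held for 1 of 18 members with at least 2 measured probe sets, Psmd13, against 12.5% of all such genes. In heart it held for 4 of 20, Psma6, Psmb1, Psmd13 and Psme4, against 14.7%. In wild-type TA over heart it held for 5 of 19, Psmd4, Psmd7, Psmd9, Psmd11 and Psmd13, against 18.1%. The members were thus near the background in each comparison.

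In most of these genes a much dimmer probe set opposed the brightest one. Psma6 had a probe set at 407 in knockout and 267 in wild-type heart, a log2 ratio of 0.61, against -0.17 and -0.19 on brighter ones of 6334 to 11915. Psmb1 had 193 and 151 in heart on 1 dim probe set, a ratio of 0.35, against -0.20 on the bright one and -0.31 on another dim one. The dim probe set of Psmd7 had 211 in wild-type TA and 251 in heart, a log2 ratio of -0.25, against 0.81 on the bright one. In Psmd11 the opposing probe set was well above the floor, with 1012 in wild-type TA and 1845 in heart, a ratio of -0.87 against 0.34 to 0.41 on the 3 brighter ones. For Psmd4 and Psmd9 the opposing probe sets were at 121 and 139 in wild-type heart and under the floor in TA.

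**Figure D4:**
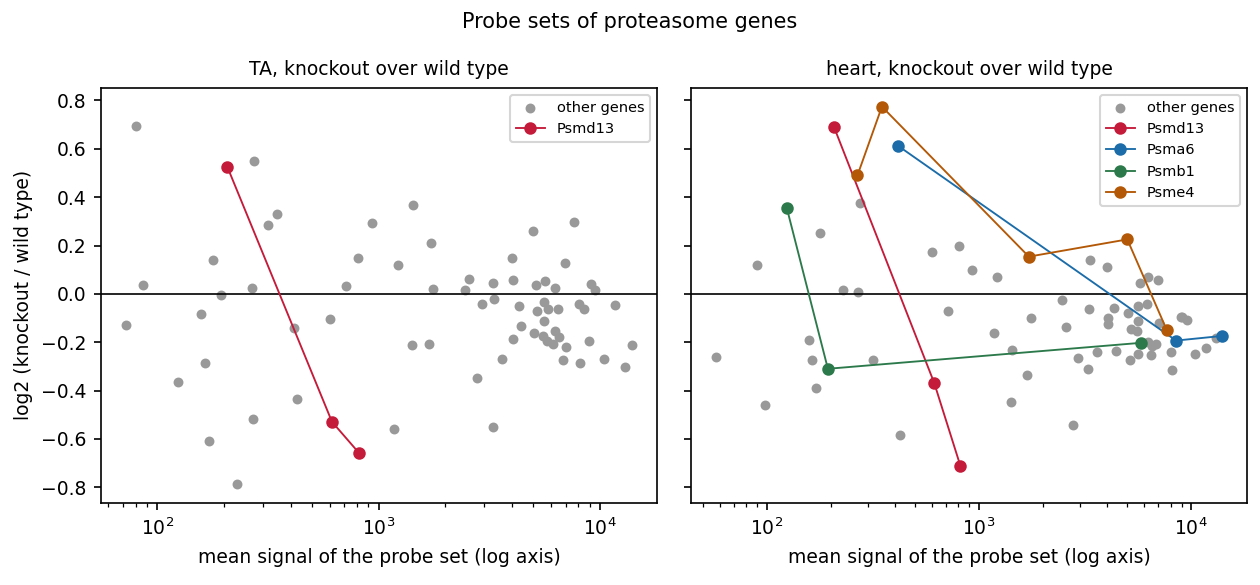
Log2 ratio of knockout over wild type (y axis) against mean signal over the 4 arrays (x axis, log scale) for each measured probe set of the members, in TA (left) and heart (right), with lines joining the probe sets of genes that disagree. The dimmest probe sets of Psmd13 and Psmb1 lie above 0 in heart while their brightest lie below it.

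The members matched by name only were kept apart from the classes. Psmc3ip had 141 in knockout and 243 in wild-type TA, 1.73-fold lower, and 266 and 264 in heart. Its second probe set was 1.53-fold lower in TA, bounded by the floor, and 1.31-fold lower in heart, with 192 against 252. Psme3ip1 had 1294 and 1189 in TA and 1223 and 1165 in heart.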

How the data were processed

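The authors deposited 1 signal intensity per probe set and array, on a linear scale. The submitters' processing notes name MAS5, without a version or scaling target. Of 45037 probe sets 34945 carried 1 gene symbol in the platform's annotation, 932 several and 9160 none, and only the first were used. All 44 members matched RefSeq by gene identifier, and 0 symbols differed. The arrays were used as deposited, with 1 array per group, so samples were compared by log2 ratios and counts past 1.5-fold and 1.2-fold, beside the percentage of all measured genes past the same fold. The number of arrays limits the precision. Alternatives covered the scale, the floor and the choice of probe set. Members and lists were chosen with earlier results of these data known. The comparison of tissues in the knockout arrays, the background of genes of at least 4 times the floor and the printed promoters were chosen after seeing the data.

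All classed members are given by class. Signals are given for members at least 1.5-fold apart in a comparison of the design, the active-site subunits, the highest and lowest ratio of each class and genes whose probe sets disagree; others were named for their place beside these. From the pathway lists, up to 4 genes past 1.5-fold were named for each comparison of the design. Marker lists are given by counts. The markers named there, Pomp, Nfe2l1, Tap1, the other genes of the pathway lists under 1.5-fold and the neighbours of Psmd13 were chosen after their values were seen. Computation used Python 3.11.15, pandas 2.3.3 and numpy 2.4.6, and was tested on simulated arrays with known ratios.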

Additional observations from a re-analysis of the deposited data

Results flagged for a closer look

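No group had enough arrays to look for an outlying one. Among members and the other lists, 1 gene lay at least 1.2-fold apart in opposite directions in the knockout pools of TA and heart. Foxo3, a regulator in the list of transcription factors, had a log2 ratio of 0.51 in TA and -0.28 in heart, a difference of 0.79 that was not tested. A second probe set of Foxo3 had 0.54 in TA and 0.37 in heart, so its direction in heart depends on the probe set. None of the 44 members met this condition.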

How the results depend on the processing

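With 1 pool per group, no replicate was available to leave out. No paired analysis was possible because each group has 1 array and the labels give no replicate numbers. Quantile normalization moved the wild-type tissue difference between Psmb8, Psmb9 and Psmb10 and Psmb5, Psmb6 and Psmb7 from -1.08 to -0.92 over the 4 arrays and to -0.93 within the pair. Members at least 1.5-fold lower in knockout heart numbered 2 with a 25th-percentile floor, 2 with no floor and 0 with the median over a gene's probe sets, against 1. Those in TA numbered 1 with the floor at the 75th percentile, 4 with no floor, 1 with the median over probe sets and, in an alternative added after seeing the data, 1 among proteasome classes, against 2. At 1.2-fold, 2 members were lower in wild-type TA than heart with the floor at the 75th percentile, against 4. In knockout heart 1 was higher with no floor, against 0, and 9 were lower with the median over probe sets, against 5. In knockout TA 1 was higher without the _x and _s probe sets, against 2. The activators' median in heart turned from -0.10 to 0.15 with the median over probe sets and to 0.17 without the _x and _s probe sets. Without those, the alpha ring's TA median was -0.070 and the activators' wild-type tissue median 0.52. Disagreeing members in TA, heart and the wild-type tissue comparison numbered 5, 8 and 12 with a 25th-percentile floor, 0, 0 and 1 with a 75th-percentile floor, and 7, 9 and 12 with no floor, all added after seeing the data, against 1, 4 and 5. Over the alternatives planned, counted after seeing the data, 23 or 24 of the 31 constitutive genes lay below 0 in TA, 27 or 28 in heart, and 27 to 31 above 0 in the wild-type tissue comparison. Over all main values, 356 alternatives stayed within the limits, 24 moved past them and 2 turned to the opposite sign. The limits were 0.1 on the log2 scale for a median and 1.5 times for a count. Signals near the floor limit Psmb9 and the dim probe sets.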
